A study of Mus musculus with 16 samples.

Results

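Replicating cells make new histones to package new DNA, and the genes that supply most of that protein are described here in mouse regulatory T cells (Treg). Genes were chosen by symbol alone: an array probe set had to be annotated to exactly 1 gene symbol of the H1f, H2ac, H2bc, H3c or H4c series (or the older Hist1h to Hist4h names), and the brightest probe set stood for a gene. This gave 30 genes of the 19938 with a probe set of their own, each from 1 probe set: 8 of linker histone H1, 4 of H2A, 9 of H2B, 3 of H3 and 6 of H4. The symbol rule is wider than the class it is named for. H1f10 is a replacement linker histone, H1f6 and H1f7 are testis linker histones, H1f8 is the oocyte linker histone, and H2ac1 and H2bc1 encode the testis forms of H2A and H2B. The remaining 24 genes are counted here as the somatic replication-dependent class. They include H2bc21, whose H2BE protein is known from olfactory neurons and whose place in the class is less sure.

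Treg were sorted from lymph nodes, pooled over several sites, of wild type female C57BL/6 mice aged 8 to 12 weeks. Surface CD103 and ICOS defined 4 subsets, called here double-negative (CD103neg ICOSneg), CD103 single-positive (CD103pos ICOSneg), ICOS single-positive (CD103neg ICOSpos) and double-positive (CD103pos ICOSpos). RNA came from cells taken straight from the sort (fresh) or from cells of the same 4 subsets recovered after 3 days in a suppression assay (activated), in which 200000 Treg were kept with 1000000 Ly5.1 congenic naive CD4 cells, 2000000 irradiated Rag2-/- splenocytes and soluble anti-CD3 at 0.5 ug/ml. Activated Treg were sorted again as CD4 and CD25 positive cells without Ly5.1, so every activated group shared the culture as well as the stimulus. The CD103 and ICOS names of activated groups are those of the sort before culture, since the sort after it used neither marker. Biological replicates 1 and 2, from 2 independent experiments, gave 1 array each per group, so 16 arrays over 8 groups.

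A nucleosome holds an octamer of H2A, H2B, H3 and H4, and H1 binds the linker DNA where the strand enters and leaves it. The somatic genes for these proteins are intronless, lie in clusters, and are transcribed mainly in S phase through NPAT, a cyclin E/CDK2 substrate. Their messages end in a stem-loop bound by SLBP in place of a poly(A) tail and are degraded when DNA synthesis stops, which makes them a readout of S phase in lymphocytes as in other cells. Replacement histones such as H3.3 and H2A.Z come from polyadenylated messages and are made throughout the cycle.

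Values are log2 intensities, and a level is that of its own probe set, so levels are compared between arrays and never between genes. Array medians lay between 6.26 and 6.48. H1f3, H1f6, H1f8, H2ac8, H2bc21, H3c15 and H3c7 were above the array median on 0 of 16 arrays and H2bc22 on 1, so for these 8 genes little signal stood over background. H4c8 was above it on the 8 activated arrays only. Foxp3, which defines Treg, lay between 11.69 and 12.84 on 15 arrays and at 8.53 on activated ICOS single-positive replicate 2, whose partner array was at 12.64. That array is shown apart, and counts of called genes in comparisons that use activated cells are given with and without it. Single differences that use activated cells include it unless stated. For the histone genes it was lower than its partner for 22 of 30, with a median difference of -0.15 and a range from -1.18 (H2ac4) to 0.56 (H2bc21), against 46.2% of all genes lower and a median of 0.02. Cd3e and Cd4 were above the array median on all 16 arrays, while Cd79a of B cells and Ncr1 of NK cells were above it on 0 and Csf1r of myeloid cells on 2. As log2 of summed intensities, 7 CD8 T and NK cell genes were at 11.30 on the array shown apart. The other 7 activated arrays were at 9.59 to 10.60. For 12 Treg core genes the values were 14.22 against 15.29 to 15.68, and for 10 naive and central T cell genes 14.61 against 13.69 to 14.10. B cell genes were at 8.49 against 8.63 to 9.65, and myeloid and dendritic cell genes at 10.12 against 9.80 to 10.43. In these bulk samples, more cells in S phase and more histone RNA per cell cannot be told apart.

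Promoters are shown first, as background on the genes compared below. RefSeq (GRCm38.p6) gave a promoter for 26 of the 30 genes, and the 150 bases before the start were read. H1f5, H2bc3, H2bc14 and H4c6 carry large differences below, and H2bc8 is an H2B gene with a similar set of motifs and a fitted fresh ICOS difference near 0. Capitals mark matches on either strand. The first motif is the TATA box, searched as TATAAA. The next is the CCAAT box, searched as those letters. Another is the octamer ATTTGCAT, which POU2F1 binds in H2B promoters. The last, GGTCCG, was chosen after the H4 promoters were looked at. None of the motifs is contained in another. Sequences run 5′ to 3′ along the gene, all on chromosome 13: H1f5 at chr13:21780626-21780775, minus strand; H2bc3 at chr13:23746584-23746733, plus strand; H2bc14 at chr13:21721894-21722043, plus strand; H4c6 at chr13:23551669-23551818, minus strand; and H2bc8 at chr13:23571250-23571399, plus strand.
H1f5: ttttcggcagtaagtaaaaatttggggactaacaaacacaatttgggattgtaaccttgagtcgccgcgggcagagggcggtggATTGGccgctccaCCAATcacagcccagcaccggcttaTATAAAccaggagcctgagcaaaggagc
H2bc3: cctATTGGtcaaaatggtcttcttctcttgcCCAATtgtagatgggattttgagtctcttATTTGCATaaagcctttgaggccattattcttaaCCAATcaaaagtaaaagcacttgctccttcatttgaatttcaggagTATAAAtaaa
H2bc14: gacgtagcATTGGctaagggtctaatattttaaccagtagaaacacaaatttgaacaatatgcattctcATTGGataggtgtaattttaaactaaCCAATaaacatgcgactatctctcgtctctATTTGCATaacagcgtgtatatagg
H4c6: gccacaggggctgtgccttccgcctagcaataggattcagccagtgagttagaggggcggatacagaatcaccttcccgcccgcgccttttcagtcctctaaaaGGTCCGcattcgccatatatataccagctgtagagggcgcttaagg
H2bc8: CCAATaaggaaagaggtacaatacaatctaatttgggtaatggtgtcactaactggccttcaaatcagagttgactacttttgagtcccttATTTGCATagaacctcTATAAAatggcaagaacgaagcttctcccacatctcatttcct

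CCAAT was found in 20 of the 26 promoters, against 24.5% of all 32851 RefSeq promoters of the same length. TATAAA was found in 12, against 7.57% of all promoters. Matches counted at any position, and the one nearest the start began 10 (H2bc3) to 142 (H2ac8) bases before it. Not every match need therefore be a TATA box. The octamer was found in 7, of which 4 were H2B and 3 were H2A genes, against 0.998% of all. GGTCCG was found in 5, of which 4 were H4 genes and 1 was H2bc9, against 4.42% of all. In the H4 genes H4c3, H4c6 and H4c9 the stretch began 46 bases before the start, and in H4c4 it began 47 bases before it. In the 12 genes called below for ICOS in fresh cells, CCAAT was found in 10, TATAAA in 6, the octamer in 4 and GGTCCG in 3. In the other 14 genes with a promoter the counts were 10, 6, 3 and 2. A link between motifs and differences was not tested.

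The first comparison asked how histone genes differed with ICOS in cells straight from the animal. In fresh cells 12 of the 30 histone genes were higher in the ICOS-positive subsets and 0 were lower, where 4.1% of all 19938 genes were called higher and 2.43% lower (limma, Benjamini-Hochberg adjusted p below 0.05, the mean over both CD103 classes). The largest differences were in H2ac4, H1f5, H2bc3 and H1f1, between 3.77-fold and 10.55-fold. The median difference was 0.29 on the log2 scale over the 30 genes and -0.05 over all genes. By type, 2 of 8 H1, 2 of 4 H2A, 5 of 9 H2B, 0 of 3 H3 and 3 of 6 H4 genes were higher, and of the 24 somatic genes 11 were. The p-values measure the spread between 2 biological replicates, pooled over the 8 groups. The main fit has no replicate term, so this spread includes any shift between the 2 experiments. Some results are also given with the replicate number fitted as a block (the replicate block).

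**Figure D1:**
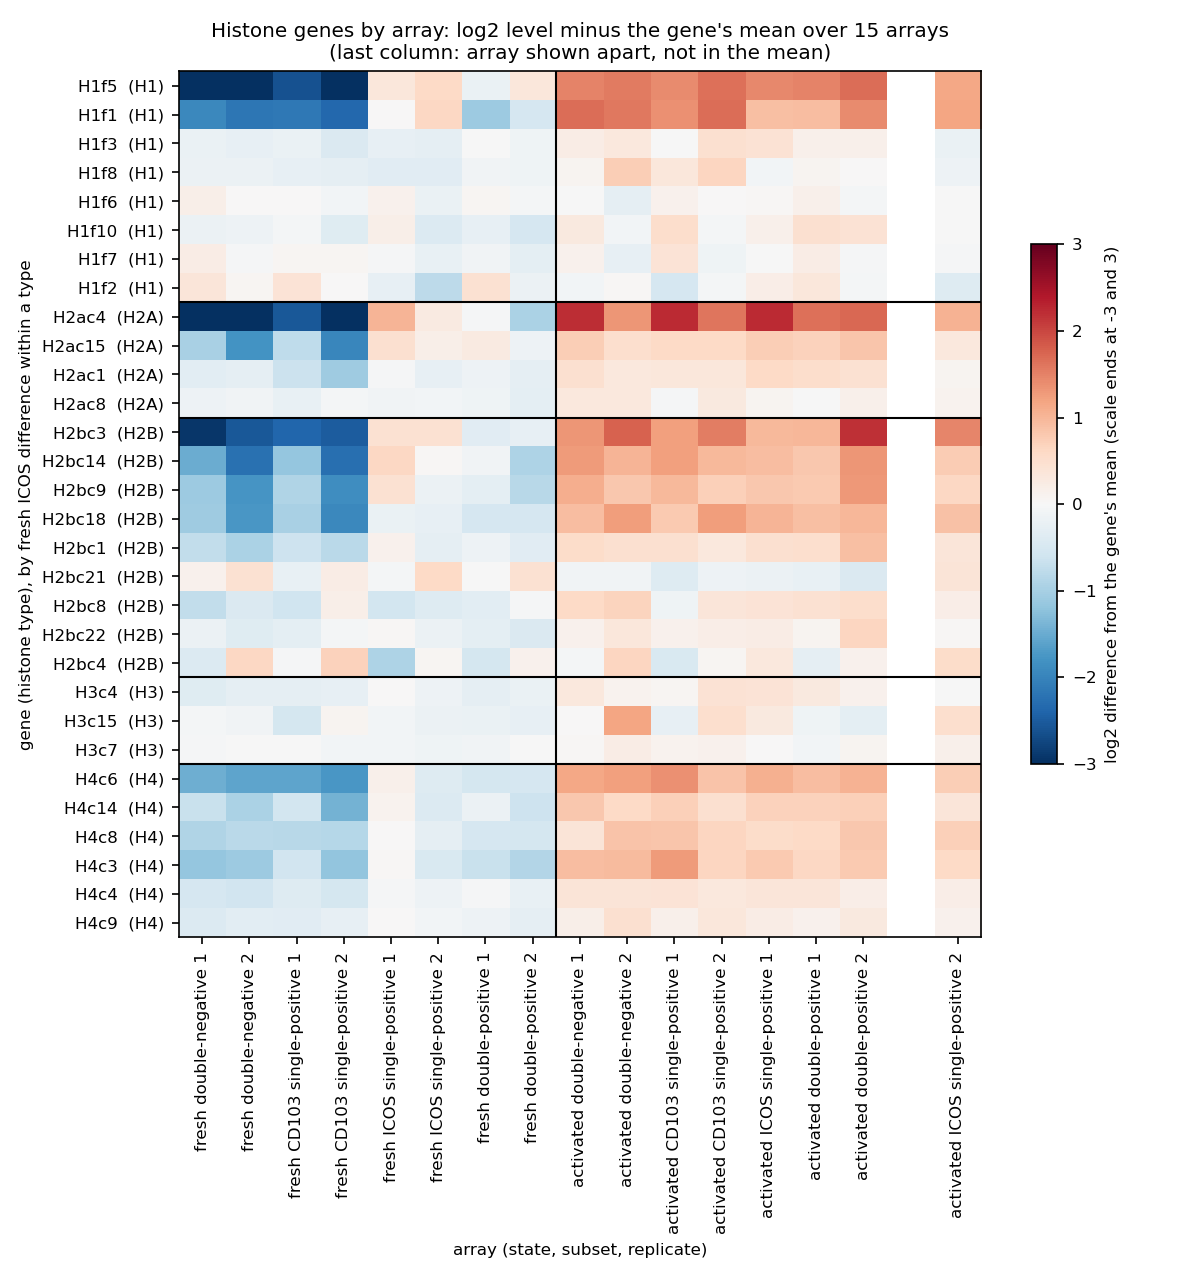
Log2 level of the 30 histone genes (rows, by type) on 16 arrays (columns), each minus the gene's mean over 15 arrays, with activated ICOS single-positive replicate 2 as a separate last column. In H1f5, H2ac4 and H2bc3 the 4 fresh ICOS-negative arrays are the lowest and the activated arrays the highest, while the fresh rows of the 3 H3 genes show no such split.

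Among linker histones, H1f5 (histone H1.5) and H1f1 (histone H1.1) were higher. H1f5 was at 6.95 and 6.90 in double-negative, 7.32 and 6.78 in CD103 single-positive, 10.29 and 10.53 in ICOS single-positive, and 9.74 and 10.28 in double-positive cells. All 4 ICOS-positive arrays were above all 4 ICOS-negative arrays, by a wide gap. The difference was 3.22 (SE 0.15, 9.31-fold, adjusted p = 7.39e-07). H1f1 was at 8.17 and 7.93 in double-negative, 7.94 and 7.74 in CD103 single-positive, 10.10 and 10.73 in ICOS single-positive, and 9.01 and 9.61 in double-positive cells. Here too the groups did not overlap, with a difference of 1.92 (SE 0.18, 3.77-fold, adjusted p = 8.32e-05).

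The other linker histones did not pass the test. H1f2, encoding H1.2, for which polyadenylated messages are also known, had a fitted difference of -0.40 (SE 0.20, adjusted p = 0.334). H1f2 was at 9.59 and 9.29 in double-negative, 9.63 and 9.24 in CD103 single-positive, 8.99 and 8.44 in ICOS single-positive, and 9.69 and 9.04 in double-positive cells. Only the ICOS single-positive arrays were both below all 4 ICOS-negative arrays, while 1 double-positive array was above and 1 below all 4 of them. H1f3, encoding H1.3 and dim on this array, had a difference of 0.11. The replacement, testis and oocyte genes H1f10, H1f6, H1f7 and H1f8 had differences between -0.24 and -0.01.

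In the H2A group, H2ac4 and H2ac15, both somatic H2A genes, were higher. H2ac4 was at 5.09 and 4.69 in double-negative, 5.93 and 4.89 in CD103 single-positive, 9.49 and 8.74 in ICOS single-positive, and 8.44 and 7.52 in double-positive cells. The difference was 3.40 (SE 0.35, adjusted p = 1.76e-04), and since the 4 ICOS-negative arrays lay below the array medians, the fold of 10.55 can understate it. H2ac15 was at 11.03, 10.22, 11.26 and 10.04 on the ICOS-negative arrays and at 12.50, 12.19, 12.28 and 11.86 on the ICOS-positive arrays. Again the groups did not overlap, with a difference of 1.57 (SE 0.25, adjusted p = 0.00356). For H2ac1, the testis form, the difference was 0.39 with adjusted p = 0.0905, and it passed without the array shown apart (adjusted p = 0.0369) and with the replicate block (adjusted p = 0.0243). H2ac8, dim on all 16 arrays, had a difference of -0.02.

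H2B held the most genes that were higher. H2bc3 was at 7.26 and 7.64 in double-negative, 7.81 and 7.70 in CD103 single-positive, 10.64 and 10.65 in ICOS single-positive, and 9.84 and 9.95 in double-positive cells. Its difference was 2.67 (SE 0.23, 6.35-fold, adjusted p = 4.19e-05), with no overlap. H2bc14 was at 9.64, 8.89, 9.98 and 8.86 on the ICOS-negative arrays and at 11.75, 11.17, 11.04 and 10.22 on the ICOS-positive arrays, a difference of 1.70 (SE 0.28, adjusted p = 0.00371). Smaller differences passed in H2bc9 (1.19), H2bc18 (1.07) and H2bc1, the testis H2B gene (0.62), each with all 4 ICOS-positive arrays above the ICOS-negative ones. H2bc8, whose promoter also holds an octamer, CCAAT and TATAAA, was at 7.01, 7.33, 7.17 and 7.94 on the ICOS-negative and at 7.22, 7.38, 7.44 and 7.72 on the ICOS-positive arrays. These groups overlapped, and the difference of 0.08 did not pass (adjusted p = 0.853).

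H2bc4 ran the other way. It was at 7.52 and 8.55 in double-negative, 7.89 and 8.61 in CD103 single-positive, 7.01 and 8.00 in ICOS single-positive, and 7.40 and 8.07 in double-positive cells, so the groups overlapped and replicate 2 was above replicate 1 in all 4 subsets. Within each replicate, both ICOS-positive arrays were below both ICOS-negative arrays. The difference of -0.52 (SE 0.31) did not pass without a block (adjusted p = 0.407) and passed when the replicate number was fitted as a block (adjusted p = 0.0211). H2bc21, which encodes the H2BE protein known from olfactory neurons, and H2bc22 were dim, with differences of 0.11 and 0.01.

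The 3 H3 genes with a probe set of their own gave no call. H3c4 was at 6.38, 6.48, 6.48 and 6.51 on the ICOS-negative arrays and at 6.77, 6.58, 6.47 and 6.55 on the ICOS-positive arrays. The groups overlapped, and the difference was 0.13 (adjusted p = 0.607). H3c7 and H3c15 lay below the array median on all 16 arrays, with differences of -0.05 and -0.02. Most H3 genes could be read only from probe sets that several of them share, and these are described below.

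In the H4 group all 6 fitted differences were above 0 and 3 passed. H4c6 was at 9.03 and 8.90 in double-negative, 8.90 and 8.75 in CD103 single-positive, 10.64 and 10.11 in ICOS single-positive, and 9.97 and 9.98 in double-positive cells. The groups did not overlap, and the difference was 1.28 (SE 0.14, 2.43-fold, adjusted p = 2.62e-04). H4c4, whose probe set is listed between 12.55 and 13.09 in fresh cells, was higher by 0.38. H4c8 was higher by 0.52, at 5.28 to 5.39 on the ICOS-negative and from 5.65 upwards on the ICOS-positive arrays, below the array median on all 8 fresh arrays, so this difference comes from dim signal and can be understated. H4c14 (0.62, adjusted p = 0.0913), H4c3 (0.52, adjusted p = 0.107) and H4c9 (0.21, adjusted p = 0.223) did not pass, and with the replicate block H4c14 (adjusted p = 0.00735) and H4c3 (adjusted p = 0.0354) did.

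For 12 genes all 4 fresh ICOS-positive arrays were above all 4 fresh ICOS-negative arrays, where 5.78% of all genes showed this. Without the array shown apart, which enters this comparison through the shared estimate of spread, 13 genes were higher, H2ac1 being added (4.91% of all genes), and 0 lower. The replicate block gave 16 calls, of which 15 were higher and H2bc4 was lower, and under that block the calls over all genes also grew, to 6.48% higher and 4.93% lower. Leaving out 1 array at a time gave 10 to 14 calls. H2bc9 lost its call without replicate 2 of the fresh double-negative (adjusted p = 0.063) or CD103 single-positive group (0.0502), or replicate 1 of the fresh ICOS single-positive (0.068) or double-positive group (0.0608). H4c8 lost its call without replicate 1 of the fresh double-negative group (adjusted p = 0.0641), replicate 2 of the CD103 single-positive group (0.0547), replicate 1 of the ICOS single-positive group (0.0762), or replicate 1 (0.0578) or 2 (0.0552) of the double-positive group.

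CD103 was compared next. In fresh cells 0 of 30 histone genes passed for CD103 (0.206% of all genes). The interaction of CD103 with ICOS also gave 0 calls (0.0451% of all genes). At an unadjusted p below 0.05, 2 of the 30 histone genes passed for CD103, against 1494 of all 19938 genes. For the interaction 4 of the 30 did, against 989 of all 19938. The fitted CD103 differences ran from -0.66 (H1f1) to 0.33 (H2bc8). Set directly against ICOS single-positive cells, double-positive cells gave 0 calls (0.336% of all genes). Unadjusted, 6 of the 30 histone genes passed, against 1681 of all 19938. Of the 30 differences 23 were below 0, with a median of -0.17. H2ac4 differed by -1.13 (SE 0.49, adjusted p = 0.554) and H1f1 by -1.11 (SE 0.25, adjusted p = 0.116), and in both genes each double-positive array was below both ICOS single-positive arrays. With the replicate block H1f1 fell, by the same 1.11 (adjusted p = 0.0369), where 1.4% of all genes were called. With a separate block in fresh and in activated cells, an alternative added after the data were seen, H1f1 (adjusted p = 0.0307), H2ac4 (0.0419) and H2bc14 (-0.83, adjusted p = 0.0439) fell, where 3.02% of all genes were called.

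**Figure D2:**
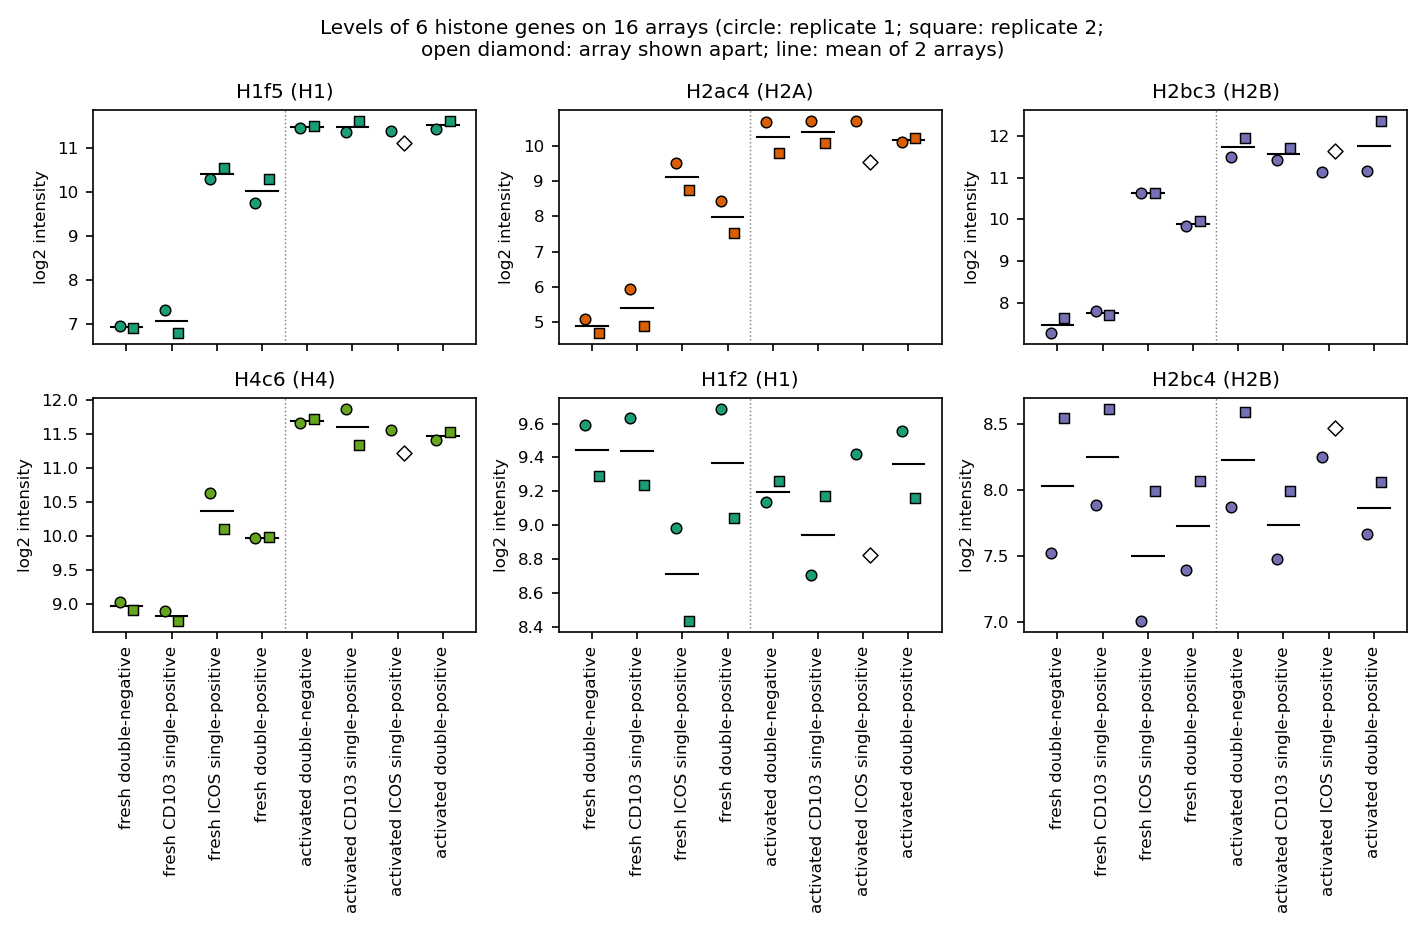
Log2 intensity of H1f5, H2ac4, H2bc3, H4c6, H1f2 and H2bc4 (panels) in the 8 groups, with circles for replicate 1, squares for replicate 2, an open diamond for the array shown apart and a line at the mean of 2 arrays where neither is shown apart. In the first 4 genes the fresh ICOS-negative arrays are the lowest and the activated arrays the highest, while in H1f2 and H2bc4 the groups overlap.

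After 3 days in culture most of the histone genes were higher. In activated against fresh cells 23 of the 30 genes rose and 0 fell, where 14.4% of all genes rose and 16.8% fell. The median difference was 0.69 over the 30 genes and 0.00 over all genes. By type, 5 of 8 H1, 4 of 4 H2A, 7 of 9 H2B, 1 of 3 H3 and 6 of 6 H4 genes rose, and of the 24 somatic genes 19 did. All 8 activated arrays were above all 8 fresh arrays for 16 genes, where 3.27% of all genes showed this. Without the array shown apart 23 genes rose (14.2% of all genes) and 1 fell, H2bc21 (-0.41, adjusted p = 0.0312, against -0.34 and 0.0705 with that array). The rise of each of the 23 genes moved by -0.06 (H2bc3) to 0.15 (H2ac4) when that array was left out, and all 23 kept the call. Markers of other cells also moved with culture: 6 of 8 B cell genes, 6 of 16 myeloid and dendritic cell genes, 4 of 7 T cell genes, 2 of 7 CD8 T and NK cell genes and 4 of 10 genes from the naive and central list fell. In the same comparison 4 of 8 markers for conventional CD4 T cells after activation rose and 2 fell, 1 myeloid gene and 1 naive and central gene rose, and Treg core genes gave 3 rises and 4 falls of 12. Without the array shown apart these counts stayed as they were, except for 3 CD8 T and NK cell falls, 6 naive and central falls and 5 Treg core rises. The summed level of the B cell genes was 9.48 to 10.76 on fresh arrays and 8.63 to 9.65 on the 7 activated arrays, and that of the T cell genes 14.71 to 15.04 and 14.19 to 14.89. The part of these markers in the histone rises was not tested.

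H1f5 and H2ac4 had the largest rises in their types. H1f5 was at 11.44 and 11.50 in activated double-negative, 11.36 and 11.60 in CD103 single-positive, and 11.42 and 11.61 in double-positive cells. The ICOS single-positive arrays were at 11.38 and, on the array shown apart, 11.11, so all activated arrays lay within a narrow band above every fresh array. H1f5 rose by 2.83 (SE 0.10, adjusted p = 7.87e-09). H2ac4 was at 10.68 and 9.80 in activated double-negative, 10.70 and 10.07 in CD103 single-positive, and 10.11 and 10.20 in double-positive cells. Its ICOS single-positive arrays were at 10.70 and, on the array shown apart, 9.52, the lowest activated value. The rise was 3.37 (SE 0.25, adjusted p = 2.09e-06).

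H2bc3 rose most in H2B and H4c6 in H4. On the 7 activated arrays without the one shown apart, H2bc3 lay between 11.15 and 12.37 with a median of 11.52, all above the highest fresh value of 10.65, and it rose by 2.69 (SE 0.16, adjusted p = 3.95e-07). H4c6 lay between 11.34 and 11.87 with a median of 11.56, above the highest fresh value of 10.64, and rose by 2.01 (SE 0.10, adjusted p = 7.99e-08). The array shown apart was at 11.65 for H2bc3 and at 11.22 for H4c6, also above every fresh array. H1f1 rose by 2.54, H2bc14 by 1.98, H2bc18 by 1.89, H2bc9 by 1.70, H4c3 by 1.57, H4c8 by 1.26, H4c14 by 1.22 and H2ac15 by 1.21. The testis genes H2bc1 and H2ac1 rose by 0.97 and 0.77, and H2bc8, which did not differ detectably with ICOS in fresh cells, rose by 0.74. H4c4 rose by 0.64, H4c9 by 0.47, H2bc22 by 0.44, H3c4 by 0.43, H1f10 by 0.43, H1f8 by 0.43, H1f3 by 0.41 and H2ac8 by 0.29.

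The 7 genes without a call were H1f2 (-0.08, adjusted p = 0.743), H1f6 (-0.01), H1f7 (0.08), H2bc4 (0.17), H2bc21 (-0.34, adjusted p = 0.0705), H3c7 (0.13) and H3c15 (0.39). Of these, H1f2 and H2bc4 were above the array median on all 16 arrays. In H2bc4 replicate 2 was above replicate 1 in every group, fresh and activated. H1f2 lay between 8.44 and 9.69 in fresh cells and between 8.71 and 9.56 on the 7 activated arrays, so the states overlapped over nearly their whole range. With the replicate block 25 genes were called (37.7% of all genes in either direction), H3c7 higher and H2bc21 lower (adjusted p = 0.0111) being added.

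The rises were unequal between subsets. H2ac4 was higher after culture by 5.35 in double-negative and 4.97 in CD103 single-positive cells, and by 2.17 in double-positive cells. In ICOS single-positive cells the activated replicate 1 alone stood 1.58 above the fresh mean, and the mean of both activated arrays 0.99. H1f5 showed 4.54, 4.43 and 1.51 in the same order of subsets, with 0.97 for replicate 1 alone and 0.84 for both arrays of ICOS single-positive cells. H2bc3 showed 4.29, 3.82 and 1.88, with 0.51 and 0.76. In these genes the change was larger in the subsets that started lower, and the fresh arrays are shared between this comparison and the fresh ICOS comparison.

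**Figure D3:**
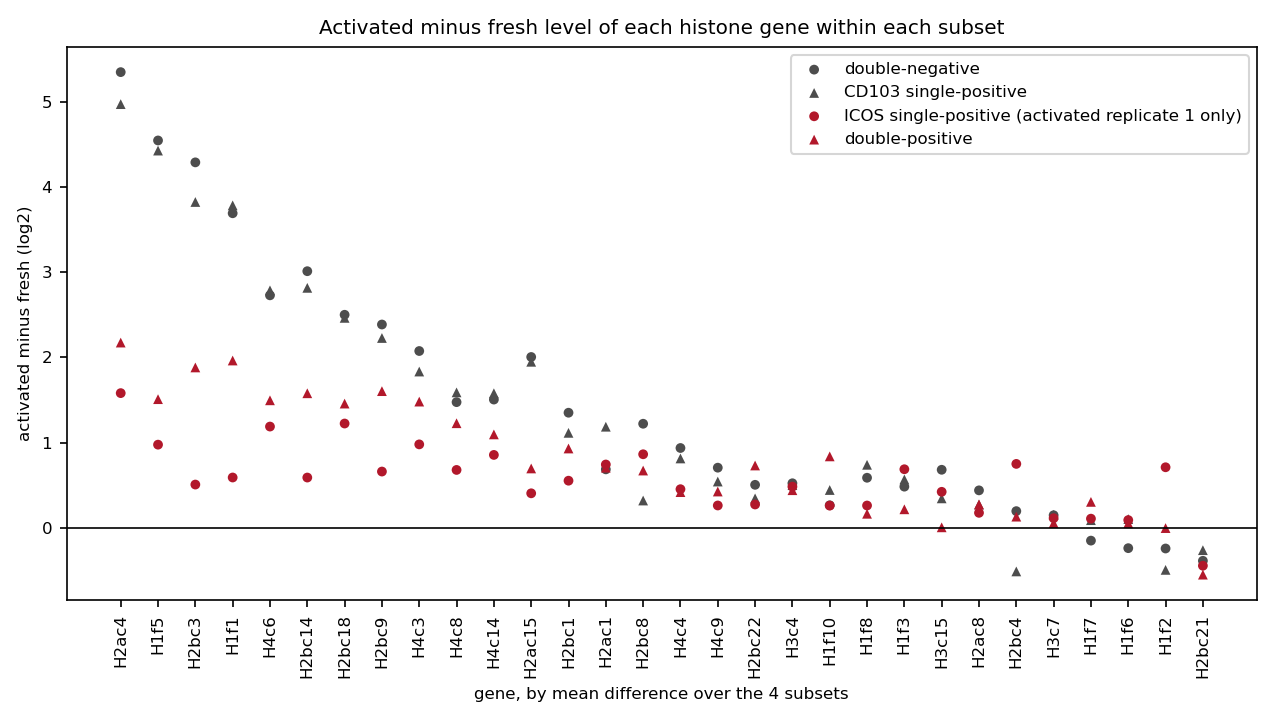
Activated minus fresh log2 level of each of the 30 genes (horizontal axis, by mean difference) within each of the 4 subsets, grey for ICOS-negative and red for ICOS-positive subsets, with activated replicate 1 only for ICOS single-positive cells. From H2ac4 to H4c6 the ICOS-negative subsets lie above the ICOS-positive ones.

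Whether ICOS still marked a difference after culture was asked in activated cells. There 0 of the 30 genes were higher in ICOS-positive subsets and 1 was lower, H1f8, where 5% of all genes were lower. H1f8, the oocyte linker histone, lay between 5.57 and 6.21 in the ICOS-negative and between 5.34 and 5.56 in the ICOS-positive activated groups, below the array median throughout. Its difference of -0.48 had adjusted p = 0.0385, and without the array shown apart it was -0.47 with adjusted p = 0.083, so 0 histone genes remained (6.65% of all genes in either direction). The call was kept in 1 of the 16 fits that leave out an array, the one without activated double-negative replicate 1, and the adjusted p in the other 15 ran up to 0.128. The median difference over the 30 genes was -0.05, and -0.01 without the array shown apart. CD103 gave 0 calls in activated cells (0.717% of all genes), 0 for its interaction with ICOS there (0.015%), and 0 for the change of the CD103 difference between states (0.296%), also without the array shown apart. At an unadjusted p below 0.05, 2 of the 30 histone genes passed for ICOS in activated cells, against 3923 of all 19938 genes.

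**Figure D4:**
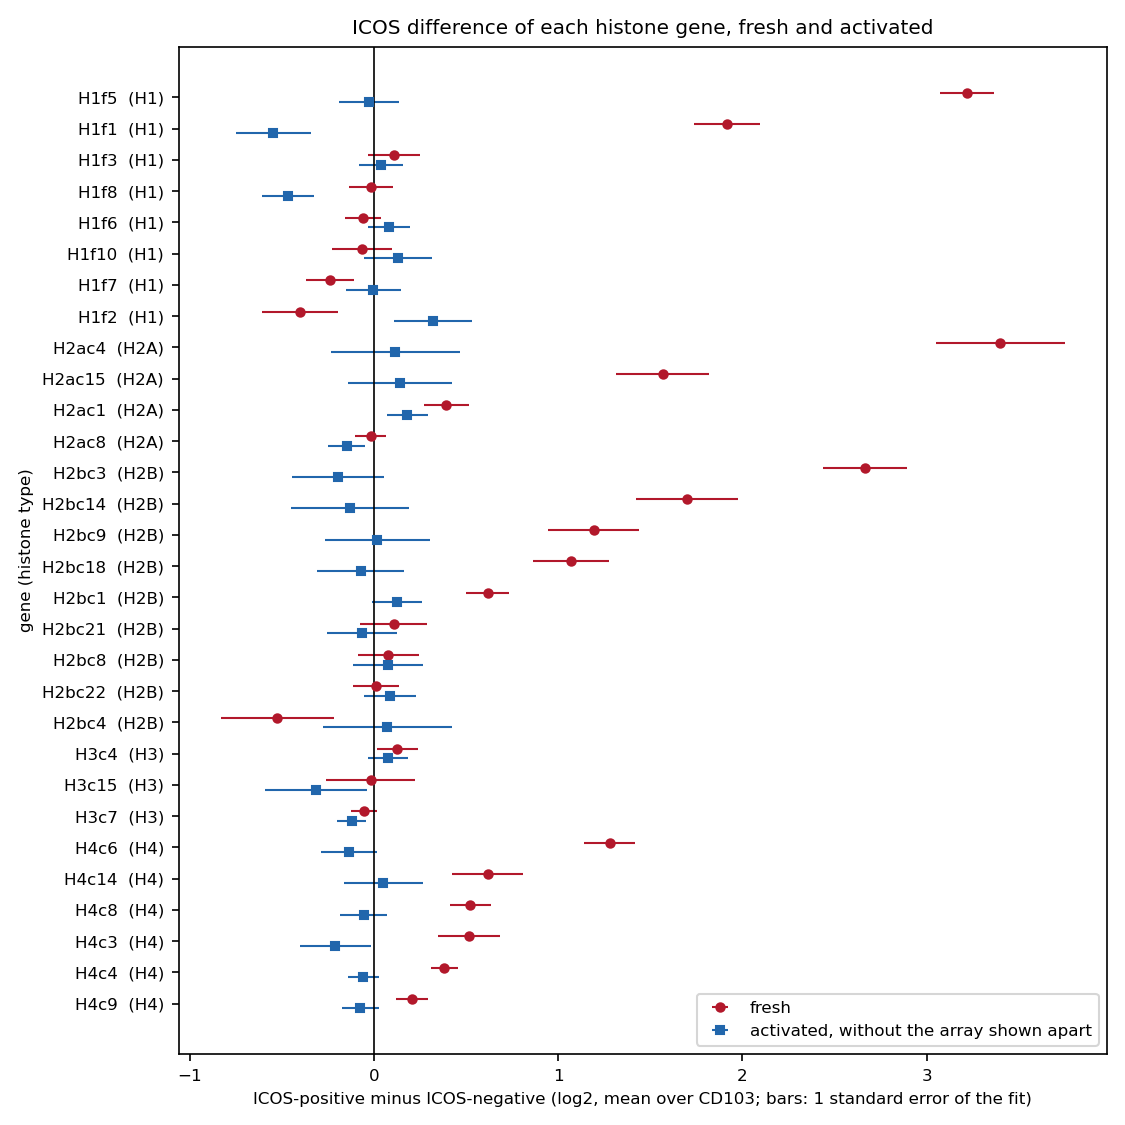
ICOS-positive minus ICOS-negative log2 difference of each of the 30 genes in fresh cells (red circles) and in activated cells without the array shown apart (blue squares), with bars of 1 standard error of the fit. Fresh differences reach 3.40, while the activated ones lie between -0.54 (H1f1) and 0.32 (H1f2).

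The change itself was tested as the ICOS difference in activated minus that in fresh cells. It was below 0 with a call in 9 of the 30 genes and above 0 in 0, where 4.65% of all genes were called below 0. The 9 genes were H2ac4 (-3.58, adjusted p = 0.00178), H1f5 (-3.31, adjusted p = 1.48e-05), H2bc3 (-2.74), H1f1 (-2.39), H2bc14 (-1.87), H2ac15 (-1.53), H4c6 (-1.50), H2bc18 (-1.18) and H4c4 (-0.48). All 9 are somatic genes. In H1f5 the ICOS difference was 3.22 in fresh and -0.09 in activated cells (-0.02 without the array shown apart). In H2ac4 it was 3.40 and -0.18, the latter 0.12 without that array. Without the array shown apart 7 genes remained (3.96% of all genes), H2ac15 (adjusted p = 0.0565) and H2bc18 (0.0677) being lost. Leaving out single arrays, H2ac15 kept its call only without fresh double-negative replicate 1, fresh CD103 single-positive replicate 1 or 2, fresh double-positive replicate 2, activated double-negative replicate 2 or activated ICOS single-positive replicate 1. H2bc18 kept its call only without fresh double-negative replicate 1, fresh CD103 single-positive replicate 1 or 2, or replicate 1 of the activated double-negative, CD103 single-positive or ICOS single-positive group. In the other 10 fits for each, adjusted p was 0.05255 to 0.068 for H2ac15 and 0.0665 to 0.0865 for H2bc18. H4c4 lost its call without fresh double-negative replicate 2 (adjusted p = 0.0512), fresh ICOS single-positive replicate 1 (0.0535), fresh double-positive replicate 1 (0.0508) or activated double-positive replicate 2 (0.0506). The replicate block gave 15 calls, where 8.77% of all genes were called below 0 and 4.46% above 0, adding H2bc9 (-1.22), H4c3 (-0.77), H4c14 (-0.65), H4c8 (-0.54) and H2bc1 (-0.52), and H2bc4 with the opposite sign (0.65, adjusted p = 0.0344).

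Histone genes are near-copies of each other, and many probe sets are listed for several. The annotation pairs 26 probe sets with 2 to 20 symbols that include a histone gene of the series named above. Of the 30 genes, 18 are listed on such a shared probe set as well as on their own, and 12 are not: the 8 H1 genes, H2ac1, H2bc18, H2bc21 and H4c14. A further 36 histone genes could be read only from shared probe sets, and no level of a single gene can be taken from them. Signal from a near-copy can also reach a probe set with 1 symbol, which was not tested. The shared probe sets are not independent of each other either: 4 of the 26 form pairs with equal values on every array.

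**Figure D5:**
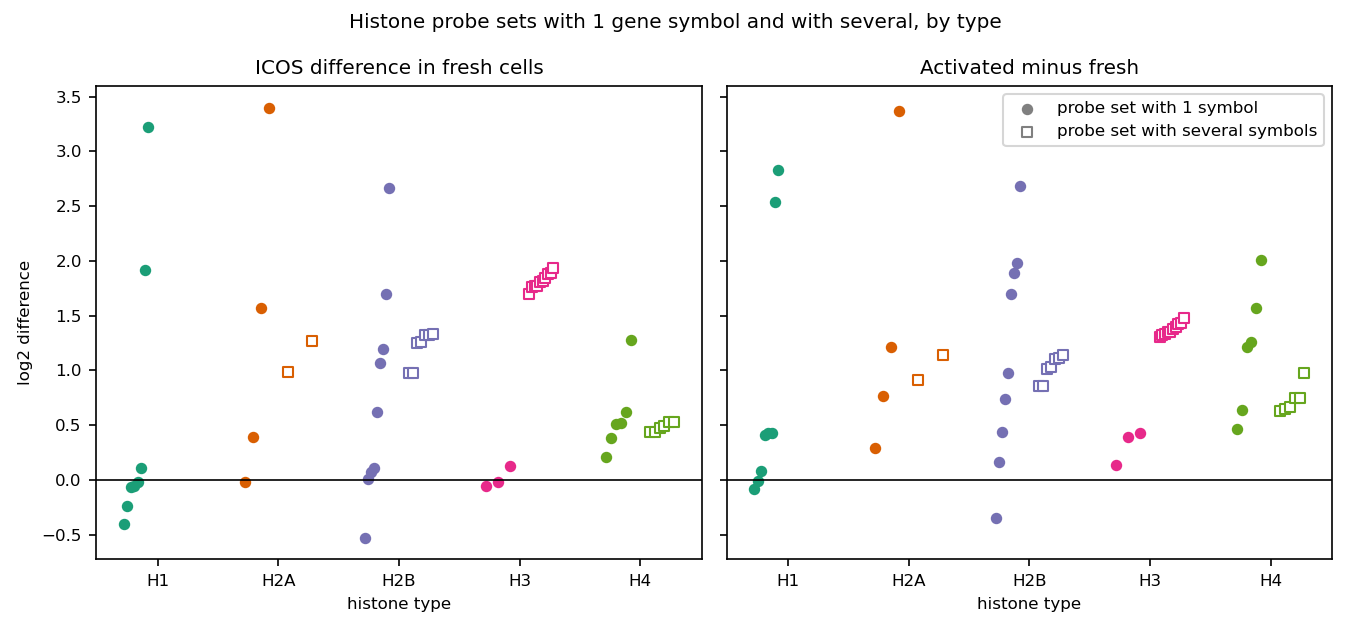
Log2 difference of each histone probe set by histone type, for ICOS in fresh cells (left) and activated minus fresh (right), with filled circles for probe sets of 1 gene and open squares for probe sets of several. The 10 shared H3 probe sets lie between 1.69 and 1.94 on the left, above the 3 H3 genes with a probe set of their own.

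In fresh cells 25 of the 26 shared probe sets were higher in ICOS-positive subsets and 0 were lower, with a median of 1.29, where 2.45% of all 35556 probe sets were higher. The 10 shared H3 probe sets, each listed for 12 symbols that include H3c4, H3c7 and H3c15, were all higher, by 1.69 to 1.94. The largest of these differences, 1.94, came from a probe set at 11.51, 10.67, 11.89 and 10.69 on the ICOS-negative arrays and at 13.39, 13.17, 13.16 and 12.79 on the ICOS-positive arrays, with no overlap. Signal shared by the H3 genes was thus higher, while the 3 probe sets of single H3 genes gave differences between -0.05 and 0.13. All 7 shared H2B probe sets (median 1.26), both H2A probe sets (0.98 and 1.27) and all 6 H4 probe sets (median 0.48) were higher too. The probe set shared by H2bc6 and H1f4 had a difference of 0.13 without a call. In activated against fresh cells all 26 rose, by 0.60 to 1.48, where 12.1% of all probe sets rose, and 0 of the 26 were called for ICOS in activated cells. Without the array shown apart these counts were again 26 and 0, with rises of 0.60 to 1.51. On activated arrays the shared H3 probe sets were at 13.23 to 13.75, where the highest value of any probe set was 13.96 to 14.24. Whether differences between such bright signals were compressed was not tested.

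Genes that make, process and place histones were read from lists. SLBP binds the histone stem-loop, and Slbp was higher in fresh ICOS-positive cells by 0.95 (adjusted p = 0.00839) and rose by 0.94 after culture. NPAT drives histone transcription, and Npat had a fresh ICOS difference of 0.16 (adjusted p = 0.597) and rose by 0.36 after culture. Of 19 measured genes for histone mRNA synthesis and 3′ processing, 3 were higher in fresh ICOS-positive cells and 0 lower: Slbp, Lsm10 of the U7 particle (0.42) and E2f1, an S phase transcription factor (1.41). Of 18 histone chaperones and deposition factors 5 were higher and 0 lower, led by Asf1b (2.08), which carries H3 and H4, and the CAF-1 subunits Chaf1a (1.43) and Chaf1b (1.15). After culture 11 of these 18 rose and 1 fell (10 and 1 without the array shown apart), with Asf1b up by 2.05 and Chaf1a by 1.92.

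Replication-independent histones were read from a list of their own. Of 9 measured, 1 was higher in fresh ICOS-positive cells and 0 lower, with a median of 0.03: Cenpa, the centromeric H3 variant (0.65). H2ax, the H2A form phosphorylated at DNA breaks, had a difference of 0.70 without a call (adjusted p = 0.0564), and H3f3a, encoding H3.3 and dim here, one of 0.03. After culture 6 of the 9 rose, with or without the array shown apart, led by H2ax (1.36) and Cenpa (1.22), while H3f3a had a difference of -0.06 (adjusted p = 0.52). One of the 9 is H1f10, already counted above.

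Cell cycle genes were higher in the same comparison. The S phase list includes Slbp and E2f1, already counted above, and Mcm2, which is also in the list of chaperones and deposition factors. Of 29 S phase genes 24 were higher in fresh ICOS-positive cells and 0 lower, with a median of 0.98, led by the ribonucleotide reductase subunit Rrm2 (3.01) and cyclin E2, Ccne2 (2.41). Of 19 G2 and M phase genes 19 were higher, with a median of 2.08, led by Mki67 (3.78) and cyclin A2, Ccna2 (3.78). The log2 of the summed S phase intensities was 13.40 to 13.54 on the fresh ICOS-negative arrays, 13.93 to 14.78 on the fresh ICOS-positive arrays and 14.92 to 15.59 on the 7 activated arrays, with 14.67 on the array shown apart. The ICOS difference changed between states, activated minus fresh, in 29 of 29 S phase genes and 19 of 19 G2 and M phase genes, all downwards. Without the array shown apart these counts were 27 and 19. In activated cells 12 of the 29 S phase genes were lower in the ICOS-positive subsets and 0 higher, and without that array 6 were lower.

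Markers of other cells and states were also read beside the fresh ICOS comparison. Of 10 genes of naive and central T cells 6 were lower and 0 higher, among them Bach2 (-1.59) and Ccr7 (-1.06), and their summed level was 13.96 to 14.56 on ICOS-negative and 13.51 to 13.76 on ICOS-positive arrays. Of 8 markers for conventional CD4 T cells after activation 2 were higher, Il21 (2.34) and Cd40lg (0.70), with summed levels of 10.34 to 10.72 and 10.60 to 11.64. Of 8 B cell genes 2 were higher, Blk (1.18) and Cd22 (1.14), with summed levels of 9.48 to 10.63 and 9.68 to 10.76. Of 16 myeloid and dendritic cell genes 1 was higher, Lyz1, with summed levels of 9.84 to 11.02 and 9.90 to 11.06. Of 7 CD8 T and NK cell genes Klrb1c was higher and Cd8a lower, with summed levels of 9.94 to 10.08 and 9.37 to 9.63. Called or not, 3 of the 8 B cell genes had a difference above 0 (median -0.03 over the list). So had 5 of the 16 myeloid and dendritic cell genes (-0.07) and 1 of the 7 CD8 T and NK cell genes (-0.75). In the naive and central list 1 of 10 was above 0 (median -1.02), and in the conventional CD4 list 8 of 8 (0.50). Erythroid and platelet genes gave 0 calls of 4, T cell genes 0 of 7, and Treg core genes 2 higher (Capg and Tnfrsf4) and 1 lower (Gpr83) of 12. Their part in the histone differences was not tested.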

How the data were processed

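Values are the deposited log2 intensities, 1 per probe set and array, for 35556 probe sets on 16 arrays. The submitters' processing notes name RMA and affy. No version or parameter of either is given in the sources used here. Per the labels' protocols, 270 ng of total RNA was amplified with the WT Expression kit, which primes along transcripts and so also reads messages without a poly(A) tail. Intensities can still include background after processing, so folds of dim genes can be understated. Arrays have no counting depth, and their number limits the precision.

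The annotation gives 1 symbol for 21789 probe sets, several for 1621 and none for 12146. The brightest probe set per symbol left 19938 genes. All 30 histone genes matched RefSeq by gene identifier and 0 symbols differed. Gene positions are not printed, because the build behind the annotation is not stated, and promoter positions are those of the RefSeq table.

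limma 3.58.1 (R 4.3.3) fitted 8 group means to all 16 arrays, with 10 contrasts. Benjamini-Hochberg adjustment ran over all 19938 genes, with a threshold of 0.05. The fit was tried on simulated data with independent arrays, so that trial does not cover the pairing of replicates given below. The array shown apart was kept in the main fit, and a fit without it used 15 arrays. Genes described were, per histone type, those with the highest mean level, the largest and smallest fresh ICOS differences and the largest and smallest rises, those running against their type, and all genes called where 5 or fewer were, and the remaining genes are given briefly. For other lists up to 4 called genes were named by size, with Slbp and Npat always, and H2ax, H3f3a and the cell marker genes were named after their values were seen. The genes and lists were chosen with earlier results of these data known.

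Replicate numbers were checked as pairs: deviations of same-numbered arrays correlated at 0.50 to 0.75 in 6 of 6 pairs of fresh groups, at 0.11 to 0.45 in 6 of 6 pairs of activated groups, and above 0.1 in 15 of 16 pairs across states (lowest -0.02). Alternatives were the replicate block, quantile normalization, removal of dim genes, the mean over probe sets, every probe set as a feature, and leaving out each array, and 2 were added after the data were seen, the 24 somatic genes alone and a block within each state.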

Additional observations from a re-analysis of the deposited data

Results flagged for a closer look

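In 9 histone genes the ICOS difference in activated cells differed from that in fresh cells by the interaction test (limma, adjusted over all genes). The change was -3.58 for H2ac4, -3.31 for H1f5, -2.74 for H2bc3, -2.39 for H1f1, -1.87 for H2bc14, -1.53 for H2ac15, -1.50 for H4c6, -1.18 for H2bc18 and -0.48 for H4c4. Each of the 9 was higher with ICOS in fresh cells, by 0.38 to 3.40, and had a fitted ICOS difference between -0.48 and 0.04 without a call in activated cells. Without activated ICOS single-positive replicate 2, H2ac15 and H2bc18 were no longer called.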

How the results depend on the processing

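Of the 9 genes whose ICOS difference changed between states, 6 kept the call in all 16 fits that leave out an array, and H2ac15, H2bc18 and H4c4 did not. All 23 rises after culture were kept in all 16, and 10 of the 12 fresh ICOS calls. Leaving out an array gave 10 to 14 calls for ICOS in fresh cells, 0 to 1 in activated cells, 23 to 25 for activated against fresh and 6 to 11 for the change of the ICOS difference. The 6 were reached without fresh double-negative replicate 2, fresh ICOS single-positive replicate 1, fresh double-positive replicate 1 or activated double-positive replicate 2. The single call for ICOS in activated cells went to 0 under quantile normalization, with dim genes removed (H1f8 was then not tested), with the 6 genes outside the somatic class left out (which include H1f8) and with every probe set as a feature. With every probe set as a feature, which takes in shared probe sets, 54 histone probe sets stood in place of the 30 genes. Of these 54, calls were 36 for ICOS in fresh cells, 47 for activated against fresh and 31 for the change of the ICOS difference. Of all 35556 probe sets, 2.45% were higher for ICOS in fresh cells and 12.1% in activated against fresh. The share of all probe sets called for the change of the ICOS difference was not counted, so the 31 cannot be set against all probe sets. The shared probe sets also overlap: 10 of H3 are each listed for 12 symbols, and 4 form pairs with equal values on every array. Several of the 54 can thus repeat the same signal, and their counts are not counts of separate genes. The replicate block gave 1 call for fresh double-positive against ICOS single-positive cells and 15 for the change of the ICOS difference. A replicate block within each state gave 3 and 15, and 1 each (H2bc4) for CD103 in activated cells and for the change of the CD103 difference. Under that block 3.02% of all genes were called for fresh double-positive against ICOS single-positive cells. Its shares of all genes in the other comparisons were not counted, so its other counts cannot be set against all genes. The blocks moved no other count by over 1.5 times. Dim signal limits what can be said of 8 of the 30 genes.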
